A study of Mus musculus with 2 samples.

Results

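The densest place of a TBP ChIP-seq experiment in mouse embryonic stem cells was a 10-kb interval of chromosome 17, from 39449001 to 39459000 on build mm8, proposed to be a copy of ribosomal DNA. It was cut into 400 non-overlapping bins of 25 bp, out of 105228643 such bins on the nuclear chromosomes up to their last read, and each bin was read separately by strand. The interval was chosen because its read density was high in these same libraries, so its height is a description and was not tested. No sequence of mm8 was used here, so the label could not be checked against bases. In RefSeq's gene table for another assembly, GRCm38.p6, chromosome 17 carries a pseudogene related to 18S ribosomal RNA, Rn18s-rs5, next to the long non-coding RNA AY036118 and between the exocrine gland peptide genes Esp15 and Esp38. Positions were not converted between the assemblies, so whether that gene is the interval was not settled.

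Ribosomal RNA genes lie in long tandem arrays, and RNA polymerase I transcribes each repeat into a precursor that is cut into the large RNAs of both ribosome subunits. TBP, the TATA-binding protein, is a part of the general machinery of all 3 nuclear RNA polymerases. For RNA polymerase I it belongs to the selectivity factor SL1, also called TIF-IB in the mouse, which binds the promoter of the ribosomal genes. Genome assemblies hold few of these repeats, so reads from many repeats of a cell can align to the few copies that an assembly contains.

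Both libraries came from V6.5 cells, an embryonic stem cell line from a C57BL/6-129 cross, grown without any treatment named in the labels, and both used the Abcam antibody AB818 against TBP. They form 1 group, with B2 as replicate 1 and B6 as replicate 2, numbers that only name them. The cells had been kept on feeder fibroblasts and were grown off them for 2 passages before B2 and for 1 before B6, and the gel cut ran from 150 bp to 350 bp and to 300 bp. Whether the cultures were separate is not stated in the labels, and a control library lacking the antibody was not used here. B2 held 16831605 nuclear reads of 36 bases with 1 alignment, and B6 held 3099993 of 26 bases, so 1 read was worth 0.0594 RPM for B2 and 0.323 RPM for B6. RPM are reads scaled to a total of 1000000 nuclear reads with 1 alignment. Every comparison below sets these 2 libraries side by side. Depth, read length, passages and gel cut all differ between them and cannot be told apart.

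A small interval took a sizeable share of each library. With duplicates kept, it held 44716 reads of B2, or 2657 RPM, and 25933 reads of B6, or 8366 RPM. These were 0.266% and 0.837% of the nuclear reads, a mean of 0.551% ± 0.404 (SD, n = 2). The density was 619-fold over the nuclear mean in B2 and 1949-fold in B6. No 10-kb window of the nuclear chromosomes that did not overlap the interval held more reads in either library. The 100 kb on each side of the interval were nearly empty, with 247 reads of B2 and 38 of B6 in all. Against these flanks the density was 3621-fold in B2 and 13649-fold in B6. At its own borders the interval held little: the first 1 kb inside its left border had 0 reads with 1 alignment in both libraries, and the last 1 kb inside its right border had 2 reads of B2 and 1 of B6. The first 1 kb beyond the right border had 7 and 0, and the last 1 kb before the left border had 1 and 0.

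**Figure D1:**
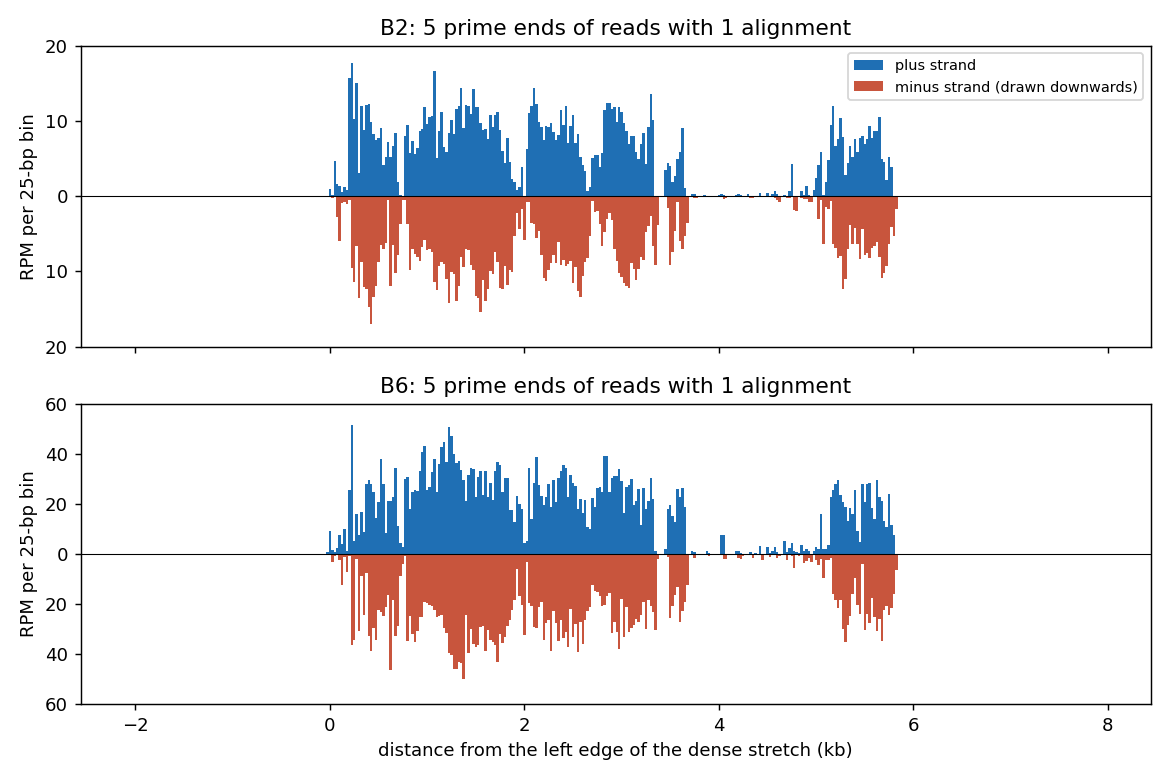
Reads with 1 alignment in each 25-bp bin of the interval, in RPM on the vertical axis, against the distance in kb from the left edge of the dense stretch; plus-strand 5 prime ends are drawn upwards and minus-strand ends downwards, B2 in the upper panel and B6 in the lower. Both libraries show a broad block, a nearly empty section and a second short block, with empty bins on either side; the highest bins reach 17.8 RPM in B2 and 51.3 RPM in B6.

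The reads filled a continuous stretch with abrupt ends. Counting reads with 1 or 2 alignments at positions with at least 5 reads, aligned bases ran from 39451061 to 39456883, a length of 5823 bp. In B2 the first such base was 39451061 on both strands, and in B6 it was 39451163 on the plus strand and 39451114 on the minus strand. The last such base lay within 10 bp for all 4 combinations of library and strand, from 39456874 to 39456883. In the outer 500 bp of the stretch at its left end 7058 reads of B2 started, against 17 in the 500 bp before it; B6 had 2866 and 19. At the right end the counts were 4572 and 1 in B2 and 2769 and 0 in B6. The stretch touched 234 of the 400 bins and held 99.99% of the reads of the interval in each library. Of the 166 bins outside it, 161 had no read with 1 alignment in either library.

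Within the stretch 190 of the 234 bins had reads on both strands in both libraries, and 12 had none with 1 alignment. All 12 of those bins held reads with 2 alignments. On the plus strand the bins ran from 0 to 299 reads with a median of 97 in B2, and from 0 to 159 with a median of 61 in B6. On the minus strand they ran from 0 to 286 with a median of 108, and from 0 to 155 with a median of 64. The strands were nearly even: of the reads within it, 49.9% lay on the plus strand in B2 and 49.0% in B6.

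The highest bins of each strand were named at least 200 bp apart, so bins nearer than that to a named one were passed over. Their spacing therefore cannot show whether the reads formed 1 shared summit. On the plus strand the highest bin by the mean of both libraries was 39451276 to 39451300, with 299 reads (17.8 RPM) in B2 and 159 (51.3 RPM) in B6, a mean of 34.5 ± 23.7 RPM (SD, n = 2). It ranked first in each library. The next on this strand, 39452276 to 39452300, had 141 reads in B2 and 157 in B6 and ranked 76th in B2 but second in B6. The rest of the 5 named plus-strand bins started at 39452026, 39453176 and 39453901. They held 201, 207 and 208 reads of B2 and 133, 120 and 121 of B6. On the minus strand the highest bin was 39452351 to 39452375, with 234 reads in B2 and 142 in B6, a mean of 29.9 ± 22.6 RPM. The bin from 39451476 to 39451500 held the most minus-strand reads of B2, 286, and 120 of B6, where it ranked 12th. Bins starting at 39451676, 39452651 and 39453601 followed with 202, 235 and 213 reads of B2 and 144, 120 and 121 of B6. The 10 named bins lay between 0.215 and 2.84 kb from the left edge, and the values of B6 in RPM were above those of B2 in each.

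No window of 200 bp held more than 2 times the median of the stretch. The highest window of 200 bp in B2 lay at 39452489 to 39452688 and held 3106 reads, 1.75 times the median window of the stretch. In B6 it lay at 39452259 to 39452458 and held 2027 reads, 1.96 times the median. Once reads with 2 alignments were added, the highest window of B2 moved to 39451288 to 39451487 while that of B6 stayed in place. The lowest windows held 6 reads of B2 and 8 of B6, and 474 and 139 with reads of 2 alignments added. All these lay between 39454751 and 39456250. Of all windows of 200 bp in the stretch, 56.1% in B2 and 51.7% in B6 reached at least 0.5 of the highest.

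The 5 densest other 10-kb windows were more concentrated. In the chromosome 17 interval the highest 200 bp held 6.95% of the reads in B2 and 7.82% in B6. On chromosome 11 from 108820001 to 108830000 they held 71.5% and 80.3%. On chromosome 2 from 98460001 to 98470000, the densest other window with 824 and 676 RPM, they held 45.5% and 22.5%. The windows on chromosome 11 from 68850001, on chromosome 5 from 3000001 and on chromosome 9 from 3030001 lay between 16.96% and 25.5%. The mitochondrial genome, chromosome M, is present in many copies per cell, and there the highest 200 bp held 5.54% and 4.93% over 16299 bp. Chromosome M is longer than the windows, so its share is not on the same footing as theirs. Reads with 2 alignments were left out of these shares. In B2 they numbered 31671 beside 13864 with 1 on chromosome 2, 3665 beside 4103 on chromosome 5 and 1843 beside 3848 on chromosome 9. They were fewer in the interval, 11476 beside 44716, and on chromosome 11, 470 beside 2915 and 76 beside 4724. Whether the positions open to 1 alignment set the shares was not tested.

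**Figure D2:**
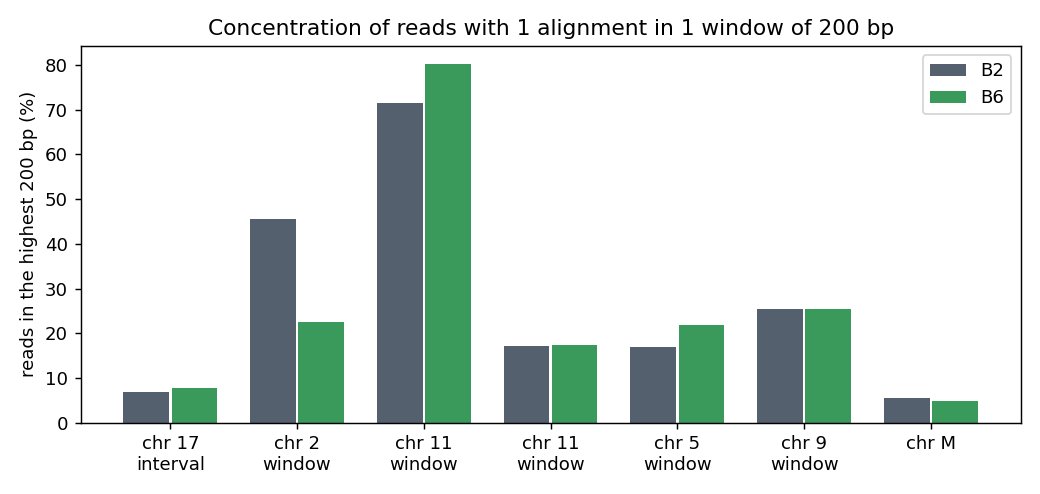
Share of the reads of a place that lay in its highest window of 200 bp, in percent, for the chromosome 17 interval, the 5 densest other 10-kb windows and chromosome M; grey bars are B2 and green bars B6. The interval, at 6.95% and 7.82%, sits below all 5 other windows and above chromosome M.

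Repeated reads at the same position were the rule in the stretch. Of the reads aligned to 1 place, 82.8% (B2) and 71.9% (B6) shared a position and strand with an earlier read, against 5.61% and 7.86% over the nuclear chromosomes. A position that was used held 5.81 reads on average in B2 and 3.56 in B6, with at most 32 and 21. The reads were not piled on a few positions: the 1% of positions with the most reads held 4.88% of the reads in B2 and 5.05% in B6. High duplicate shares also occurred in the other dense windows, such as 81.8% and 72.3% on chromosome 11 from 108820001, where only 2.66% and 2.33% of the positions were used.

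Positions without reads were shared by the strands. The leftmost base of an alignment fixes which bases are aligned, whichever the strand. In B2, 28.5% of the 5788 leftmost positions had no read with 1 alignment on either strand, against 11.3% for the product of the shares empty on each strand. In B6 the values were 29.7% and 13.9%. Empty positions common to both libraries numbered 1356, in runs of up to 118 positions, at 39454955 to 39455072 and at 39455113 to 39455230. With reads of 2 alignments added, 496 positions stayed empty and the longest run was 40, from 39454955 to 39454994. The files list no read with more than 2 alignments, so the number of such reads at these positions is not known.

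Reads with 2 alignments were most frequent in the middle of the stretch. The stretch fell into a left section of 3690 bp, a middle section of 1500 bp from 39454751 to 39456250 and a right section of 633 bp, where the middle is the longest run of 250-bp steps with more reads of 2 alignments than of 1 in both libraries. Reads with 1 alignment numbered 37432 (B2) and 21955 (B6) in the left section. The middle held 1426 and 665, and the right 5842 and 3296. In the middle section reads with 2 alignments made up 84.3% in B2 (Wilson 95% interval 83.5 to 85.0) and 81.5% in B6 (80.2 to 82.8). In the left section they were 9.04% and 8.64%, and in the right 2.01% and 6.76%. These intervals cover counting error only, since reads copied by PCR are not independent molecules.

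Adding the reads with 2 alignments raised the middle section without bringing it level with the left. Per kb, reads with 1 alignment in the middle were 0.0937 of the left section in B2 and 0.0745 in B6. With both kinds counted the fractions rose to 0.541 and 0.369. The right section stood at 0.845 and 0.858 of the left. Since the files list such a read at both of its places, these counts do not show from which place it came.

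**Figure D3:**
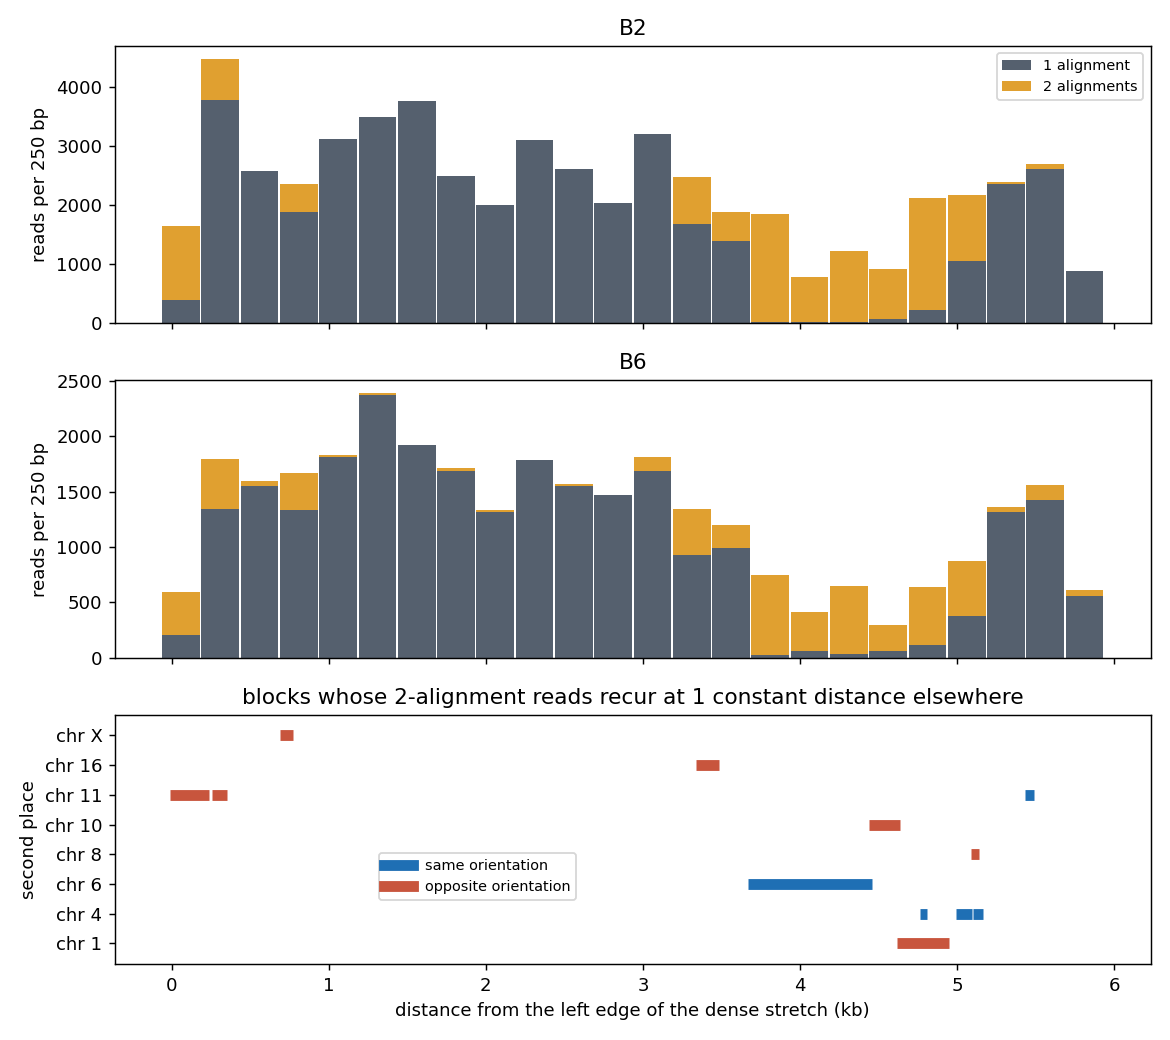
Reads per 250 bp along the stretch in B2 (top) and B6 (middle panel), with reads of 1 alignment in grey and reads of 2 alignments stacked in yellow; the bottom panel marks the blocks whose 2-alignment reads recur at 1 constant distance on another chromosome, blue where the orientation is the same and red where it is opposite. Reads of 2 alignments fill the middle section, where the chromosome 6 block of 789 bp and the chromosome 1 block of 329 bp lie.

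The second places of these reads could be found from the positions alone. A block was called where reads with 2 alignments at consecutive positions in B2 recurred with the same counts at 1 constant distance, on either strand, elsewhere in the genome. A block was kept if B6, with the distance adjusted for its read length, matched at least 50% of its reads there and at least 30 of them. Of 15 blocks 12 were kept, on 8 chromosomes. They held 94.0% of the 11476 reads of B2 with 2 alignments in the interval and 81.6% of the 5255 of B6. The other three blocks matched 19 of 19, 24 of 26 and 162 of 516 reads of B6. The distances were chosen on B2 and the blocks kept on B6, so the matches in both libraries are descriptions.

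The longest block paired 39454732 to 39455520 with chromosome 6 from 3150768 to 3151556, in the same orientation and without a shift over 789 bp. There 4037 of 4038 reads of B2 matched and 1750 of 1751 reads of B6. The place on chromosome 6 held 155 and 52 reads with 1 alignment of its own. The next block, 39455679 to 39456007, paired in the opposite orientation with chromosome 1 from 56726592 to 56726920, where 1988 of 2136 reads of B2 and 568 of 626 of B6 matched. At the left edge of the stretch, 39451051 to 39451297 paired in the opposite orientation with chromosome 11 from 103888980 to 103889226, with 1384 of 1423 and 362 of 444 reads matched.

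The remaining kept blocks were at most 197 bp long. On chromosome 16 from 18446753 to 18446898 all 1142 reads of B2 and all 457 of B6 in the block matched. On chromosome X from 8176625 to 8176711 all 486 and all 336 did. On chromosome 10 from 82384962 to 82385158 453 of 465 and 77 of 100 did. A group of 3 kept blocks lay together on chromosome 4, between 78245059 and 78245453, and the longest of them matched 506 of 506 and 229 of 241 reads. Outside chromosome 6, each second place held at most 10 reads with 1 alignment in either library.

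B6 was higher than B2 over the stretch as a whole, though not in every single bin. The ratio of B6 to B2 in RPM was 3.15 for the interval (exact binomial 95% interval 3.10 to 3.20, counting error only). With 1 read kept per position and strand it was 5.27. The interval then held 7699 reads of B2 and 7295 of B6, out of 15887305 and 2856259 such nuclear reads. The 5.27 thus mostly reflects the nuclear totals and does not show a larger excess of B6. The positions then used on a strand of the stretch were 66.3% to 66.5% in B2 and 62.4% to 63.1% in B6, a share that has a ceiling. The median of 230056 other 10-kb windows with at least 20 reads was 0.958, and 2.23% of them were at least 2-fold higher in B6, against 7.73% at least 2-fold lower. A ratio above that of the interval occurred in 0.115% of the windows. Among the 100 densest other windows, where counting error is small, the median was 1.19 and 4 lay above the interval. The dense window on chromosome 11 from 108820001 had a ratio of 3.13 and chromosome M had 1.98, while the other four dense windows lay between 0.820 and 1.24. With 1 library on each side, these ratios compare libraries and have no replicate check.

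**Figure D4:**
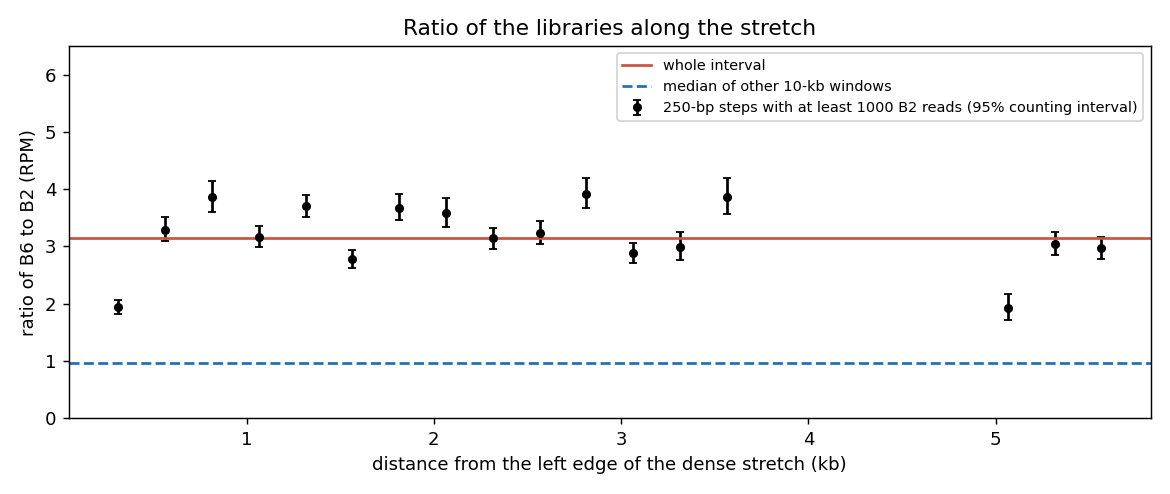
Ratio of B6 to B2 in RPM for reads with 1 alignment, for the 17 steps of 250 bp with at least 1000 such reads in B2, against the distance in kb from the left edge of the stretch; bars are exact binomial 95% intervals. All 17 steps lie above the dashed median of the other 10-kb windows, 0.958, from 1.93 to 3.92 around the interval's 3.15. Steps with fewer reads of B2 are not drawn, and their ratios ran from 2.61 to 14.6.

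The ratio varied from step to step along the stretch. Its intervals cover counting error only, and reads copied by PCR are not independent molecules. Whether the steps differed beyond that was not tested. Over the 17 steps of 250 bp with at least 1000 reads of B2 it ran from 1.93 to 3.92 with a median of 3.17. Steps with fewer reads of B2 were left out, and their ratios ran from 2.61 to 14.6. The highest of those, 39455001 to 39455250, rested on 23 reads of B2 and 62 of B6. With reads of 2 alignments included its ratio was 2.85. Among the 17 steps the extremes were as follows. The lowest values were those of 39451251 to 39451500 (1.93, interval 1.82 to 2.06) and 39456001 to 39456250, also 1.93. Reads with 2 alignments made up 15.6% and 51.3% of the reads of B2 in these steps. With reads of 2 alignments included the ratios there were 2.19 and 2.18. In the 2 kb from 39452001 to 39454000, where B2 had 0 reads with 2 alignments and B6 had 93, the 8 steps ranged from 2.78 to 3.92.

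Few single bins departed from the ratio of the interval on both strands. The rule took 161 bins with at least 20 reads on each strand, B2 and B6 counted together. Of these, 1 (0.621%) was at least 2-fold above the interval's ratio and 5 (3.11%) were at least 2-fold below it. With 1 read kept per position and strand 0 of 150 bins passed, at 3-fold 0 did, and with at least 100 reads on each strand 0 higher and 2 lower bins did. Keeping 1 read per position caps a 25-bp bin at 25 reads per strand and library. That cap limits its ratio, so the 0 of 150 cannot show that bins agreed. The same rule as at first, centred on their own pooled ratio, called 3.87% and 2.51% of the 517 other 25-bp bins of the nuclear chromosomes with that many reads. The count of higher bins was thus below the share elsewhere and that of lower bins near it. The higher bin, 39451176 to 39451200, had 9 and 15 reads of B2 on the plus and minus strands and 12 and 39 of B6. Of the lower bins, 39451326 to 39451350 had 253 and 112 reads of B2 but 49 and 6 of B6, 39451126 to 39451150 had 27 and 47 against 7 and 1, and 39456076 to 39456100 had 69 and 52 against 6 and 14. All 6 lay in 250-bp steps that also held reads with 2 alignments in B2 or B6. So did every other step of the stretch except 39452501 to 39452750, with 0 in both libraries, so this does not set the 6 bins apart. Of the 161 bins, 28 were at least 2-fold above the interval's ratio on 1 strand only and 11 at least 2-fold below it. No share elsewhere is given for these. Across the 161 bins the log2 ratios of the strands correlated weakly, with r = 0.145. The bins share both libraries, so this is a description.

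The profile itself recurred between the libraries. Over the 400 bins, log2(RPM + 1) of B2 and B6 correlated with r = 0.950 and rho = 0.949 on the plus strand and with r = 0.957 and rho = 0.961 on the minus strand. The correlation was lower among filled bins. In the 234 bins of the stretch r was 0.897 and 0.911, and in the 174 bins of its left and right sections 0.774 and 0.775. Bins share a library and the same aligned bases, so these are descriptions of 2 libraries.

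Plus and minus ends were offset in the part of the stretch where B2 had no reads with 2 alignments. Over the 2 kb from 39452001 to 39454000, positions held 5.75 ± 4.18 reads on the plus strand and 5.57 ± 4.06 on the minus strand in B2 (SD across 2000 positions), and 3.47 ± 2.61 and 3.50 ± 2.51 in B6. Between 88.9% and 91.1% of positions were used on each strand. With ends summed over 21 bp, plus ends correlated best with minus ends 141 bp downstream in B2 (r = 0.700) and 144 bp in B6 (r = 0.510), against 0.142 and 0.279 at no distance. With single bases B2 was highest at 144 bp (r = 0.289) but B6 at 23 bp (r = 0.172), with 0.151 at 148 bp. With the sums the maximum was broad in B2, where r at 100 bp was 0.669. B6 had another maximum of nearly the same height, r = 0.495 at 75 bp. The library fragments had been cut from a gel that spanned 150 bp to at most 350 bp with primers.

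**Figure D5:**
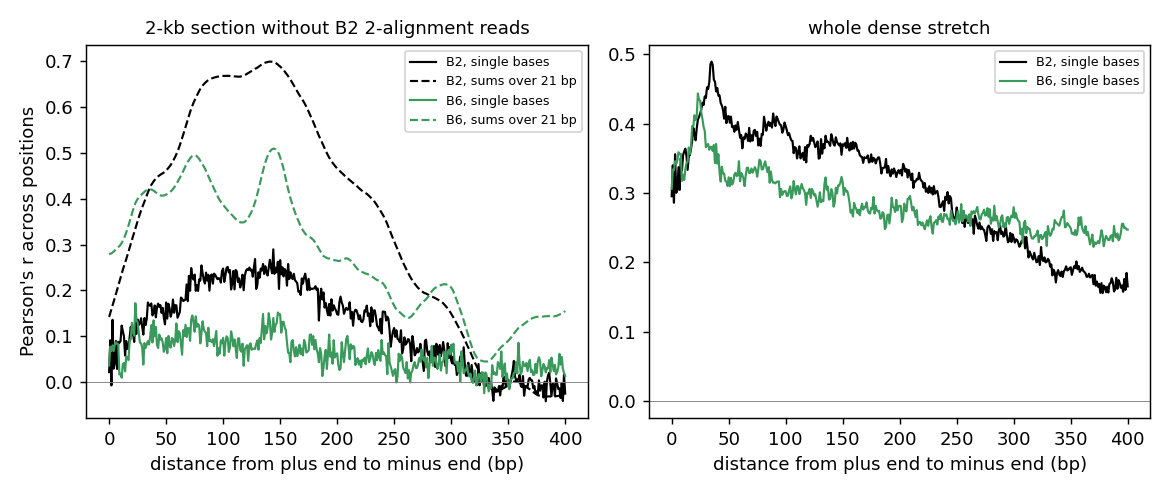
Pearson's r across positions between plus-strand 5 prime ends and minus-strand ends a given distance downstream (bp), for the 2-kb section on the left and the whole stretch on the right; black is B2, green B6, full lines are single bases and dashed lines sums over 21 bp. In the section both dashed lines peak near 141 and 144 bp, with another maximum in B6 at 75 bp; in the whole stretch r is highest at 35 bp (B2) and 23 bp (B6).

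Over the whole stretch the best distance lay near the read length. There single-base counts of B2 correlated best at 35 bp (r = 0.490), the distance at which both strands share a leftmost base for reads of 36 bases, and those of B6 at 23 bp (r = 0.444). At distances of at least 50 bp the highest r was 0.415 in B2, at 89 bp, and 0.348 in B6, at 77 bp, a mean of 83.0 ± 8.49 bp (SD, n = 2). The dense windows on chromosomes 2, 5 and 9 had their best distance at 35 bp in B2 too, and in B6 at 25 bp. The window on chromosome 11 from 68850001 did so at 69 and 57 bp.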

How the data were processed

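The 2 libraries of 1 group were analysed from the authors' deposited alignments. A line gives a position on mm8, negative for the minus strand, and holds no count, per the file headers. The aligner was Bowtie (headers: -e 70, -k 2, -m 2, -n 2, and -l 36 for B2 or 26 for B6), which the submitters' processing notes name too, without a version. Reads with more than 2 alignments had thus been dropped. Positions count from 0, and 1 was added for printing. Read lengths were taken from -l and checked on chromosome M, where position plus length reached 16299 at most.

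All reads were kept, each 5 prime end was placed in its 25-bp bin, and reads with 1 and 2 alignments were kept apart. RPM used nuclear reads with 1 alignment. In ratios of bins and 10-kb windows 0.5 reads were added. Python 3.11.15, NumPy 2.4.6, SciPy 1.17.1, pandas 2.3.3 and matplotlib 3.10.9 were used. The strand distance and block search were tested on simulated reads. No test between conditions was possible with 1 group. Named bins were the 5 highest per strand at least 200 bp apart, and up to 3 in each direction past 2-fold on both strands. Runs of at least 4 bins inside the stretch with 0 reads of 1 alignment in both libraries were to be named too. The longest stretch was to be set by windows at least 10 times the flanks, which gave 39450856 to 39457083, up to a window wider than the reads; edges at positions with at least 5 reads were used instead. Between these edges no such run of bins occurred; the wider edges add empty bins at both ends. The interval and the rules were chosen with earlier results of these data known.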

Additional observations from a re-analysis of the deposited data

How the results depend on the processing

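Sections of the stretch, blocks and the 2-kb section were chosen after seeing the data. With 1 library left out, the interval's share of reads was 0.266% to 0.837%, its fold over the flanks 3621 to 13649 and the strand distance 77 to 89 bp; other settings moved the share and the fold by less than their SD, which is wide with 2 libraries. With 1 read per position and strand the mean share was 0.152% and the fold 2346. The ratio of B6 to B2 became 5.27 with 1 read per position, 3.77 relative to the flanks and 2.92 with reads of 1 or 2 alignments. The 5.27 mostly reflects the nuclear totals, since the positions used in the stretch have a ceiling. The mean r over bins was 0.966 with 1 read per position, 0.979 in bins of 100 bp, 0.966 and 0.932 with pseudocounts of 0.1 and 10 RPM, 0.846 in bins with reads in both libraries, 0.904 in the stretch, 0.797 there with both kinds of reads, and 0.775 in the left and right sections. Bins past the fold on both strands numbered 6, against 2 at 100 reads per strand, 10 at 1.5-fold, 0 at 3-fold and 0 with 1 read per position. Keeping 1 read per position caps the reads of a bin, so its 0 is no check. The strand distance of 83 bp became 56.5 bp with 1 read per position and 63.5 bp on a log2 scale. In both settings B2 stood at 50 bp, the shortest distance searched, and B6 at 63 and 77 bp. These 2 means thus include a search limit and are not measured maxima. In the 2-kb section the distance was 146 bp at distances of at least 50 bp (without that minimum single bases of B6 were highest at 23 bp). With sums over 21 bp it was 142.5 bp there. Positions empty on both strands fell from 29.1% to 14.2% with reads of 2 alignments. For changes with no value beside them the cause was not tested. No paired analysis was possible because the libraries form 1 group.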
